A study of Mus musculus with 3 samples.

Results

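The genes described here are 42 mouse genes of glucose uptake, glycolysis, lactate and pyruvate handling, the pentose phosphate pathway and the TCA cycle, taken as a list of symbols. Array rows that were not controls and whose gene name was one of these symbols, or an older synonym of it, gave 72 probes for 41 of the 42 genes, out of 27656 gene names on the array. Rpia, a pentose phosphate isomerase, had no probe by name. One value per gene came from its brightest probe, and the 41 genes were all among the 19486 genes tested.

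RNA of mouse embryonic stem (ES) cells was set against RNA of mouse embryonic fibroblasts (MEF) on 3 arrays with 60-base probes, each carrying 1 ES cell replicate labelled with Cy3 and MEF RNA labelled with Cy5. ES cells, which are pluripotent cells of the early embryo, were grown in Knockout DMEM with serum and leukemia inhibitory factor, which keeps them undifferentiated. MEF were grown in DMEM with serum and without that factor. Both were untreated, and the labels name no strain, line or passage for either, nor say whether ES cells were grown on feeder cells. The labels do not say whether the ES cell replicates were separate cultures, so the spread and p-values below may cover technical variation only. No MEF sample was measured against MEF, so the spread of MEF is left out, and no array had the dyes exchanged, so a dye effect and the cell type cannot be told apart.

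Glycolysis breaks glucose down to pyruvate in the cytosol, and lactate dehydrogenase turns pyruvate into lactate. The pyruvate dehydrogenase complex instead feeds pyruvate into the TCA cycle of the mitochondria, and pyruvate dehydrogenase kinases switch that complex off. The pentose phosphate pathway branches from glucose 6-phosphate and gives NADPH and ribose for nucleotides. Pluripotent cells in culture are known for a high glycolytic flux, and most steps of glycolysis have several isozymes encoded by different genes.

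Ratios are given as log2 of ES cells over MEF, so a positive value is higher in ES cells. A gene is said to be higher or lower where the adjusted p of the limma fit over all 19486 genes was under 0.05 and the ratio was at least 1 in size, which is 2-fold. By that rule 42.8% of all genes tested were called, 20.4% higher and 22.5% lower in ES cells. Of the 41 metabolic genes 8 were higher, 3 were lower and 30 were not called, which is 26.8% called and below the share over all genes. Their median ratio was 0.0992 and that of all genes was -0.0505. The median size of the ratio, regardless of sign, was 0.513 for these genes and 0.828 for all genes. With median centring in place of loess the median of all genes moved to 0.11, and the split among the 41 genes became 11 higher and 2 lower. Without the fold minimum 40 of the 41 genes had an adjusted p under 0.05 (limma), against 95.4% of all genes, so the fold minimum decides the calls.

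The 8 higher genes were the glucose transporters Slc2a1 and Slc2a3, the glycolytic genes Hk2, Pfkp, Pgam2 and Eno1, the lactate dehydrogenase subunit gene Ldhb and the kinase gene Pdk1. The 3 lower genes were Eno2, Pdk2 and Me1. None of the 4 measured pentose phosphate genes was called, and of the 10 genes listed with the TCA cycle Me1 was the 1 that was.

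**Figure D1:**
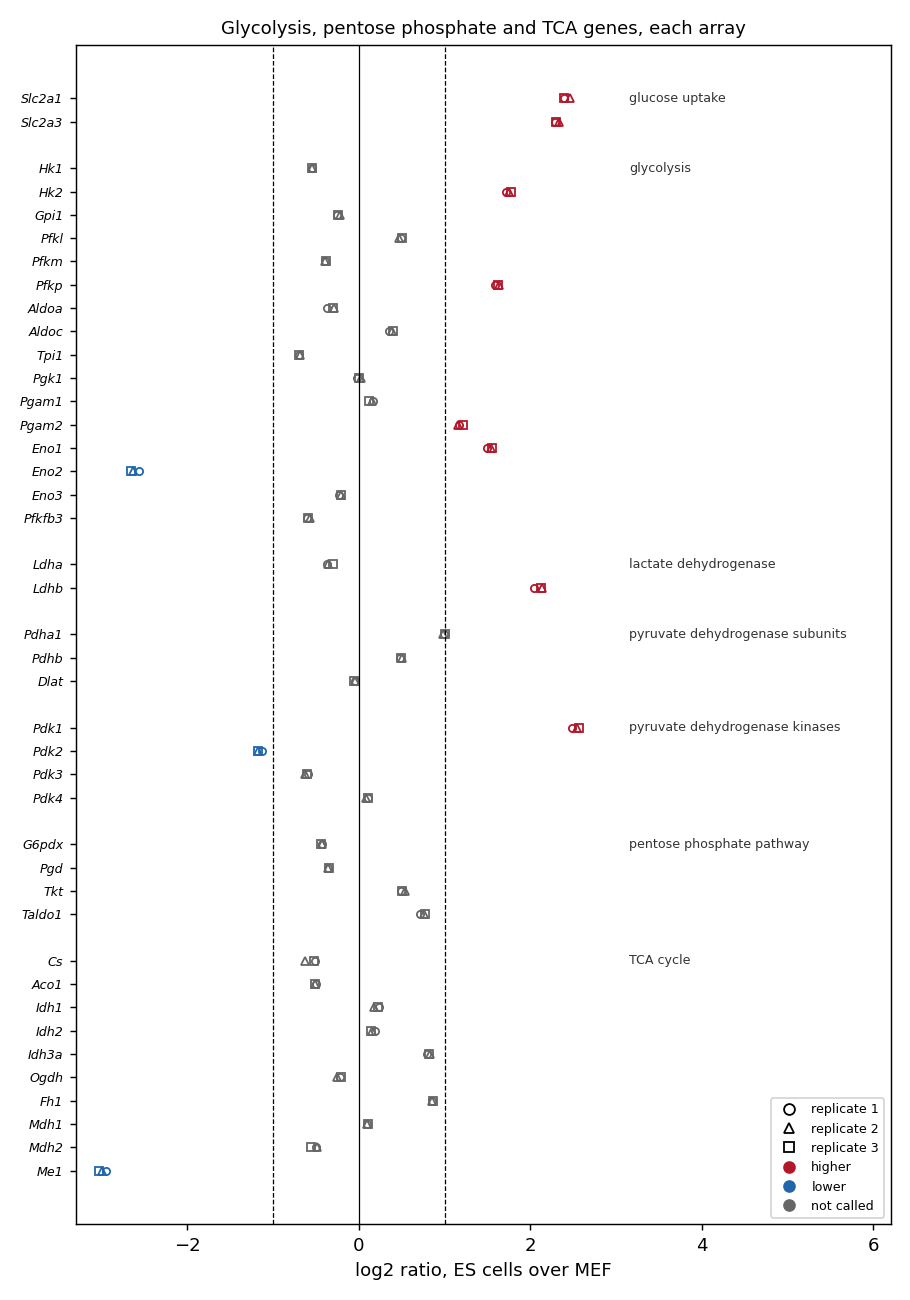
Log2 ratio of ES cells over MEF (x axis) of the 41 measured genes (y axis, grouped by pathway), with 1 point per array and dashed lines at the ratio of 1 in size used for calls. The points of the 3 arrays nearly coincide for every gene, the 8 higher genes lie between 1.18 and 2.53, and Pgk1 is the 1 gene whose points fall on both sides of 0.

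**Figure D2:**
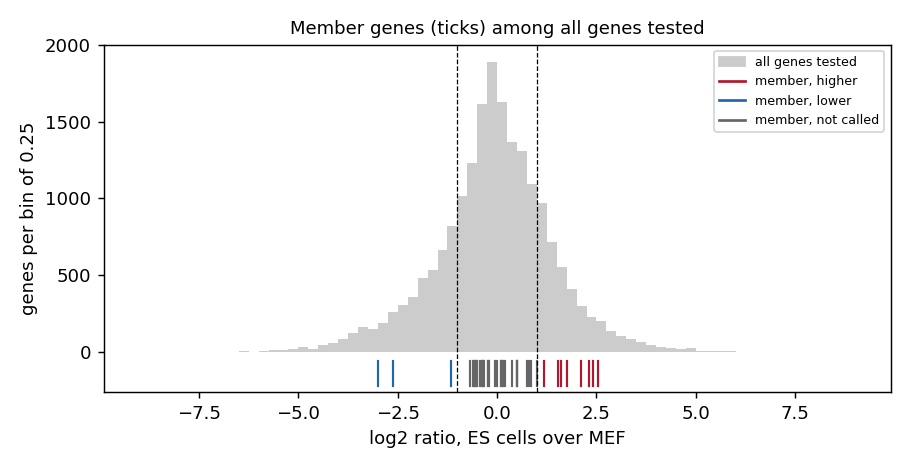
Number of genes per bin of 0.25 in log2 ratio of ES cells over MEF, for all 19486 genes tested, with the 41 metabolic genes as ticks below. The ticks gather near 0, where the histogram peaks, and span -2.99 to 2.53 while all genes span -8.32 to 7.18.

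On each array, both channels of the brightest probe exceeded background clearly for all 41 genes, by the scanner software's own test. None of these brightest probes was saturated. The SD of the ratio over the 3 arrays had a median of 0.023 among them and 0.028 among all genes. The defining markers of both cell types went the way of the labels: 10 of 10 ES cell markers were higher and 10 of 10 fibroblast markers were lower in ES cells. MEF RNA also held macrophage transcripts, since 10 of 10 macrophage markers were lower in ES cells, with a summed normalized signal of 577000 to 608000 in the MEF channel and 12500 to 13000 in the ES cell channel. In RNA of whole cultures, fewer cells of a type and less RNA per cell cannot be told apart.

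The promoters of these genes are shown for the letters ACGTG, the core of the element that hypoxia-inducible factors bind, which textbooks place at many glycolytic genes. RefSeq promoters of build GRCm38.p6, 250 bases before to 50 after each start, matched 40 of the 42 genes by symbol, with Slc2a3 and Idh3a missing. ACGTG on either strand was in 25 of their 61 promoters (41.0%) and in 19.6% of all 32851 promoters of 300 bases. Several promoters belong to 1 gene and overlap, as for Ogdh, so the shares by promoter count some genes repeatedly. By gene, ACGTG was in 17 of 40, and no share by gene was computed over all genes. The E-box CACGTG, which contains ACGTG, was in 7 of the 61 (11.5%) and in 7.2% of all. Among higher genes with a promoter, 2 of 7 had ACGTG, among lower genes 2 of 3, and among genes not called 13 of 29. Stretches of 80 bases upstream of a start are given 5′ to 3′ on the strand of the gene for the higher and the lower genes that hold these letters, and for Ldha and Pgk1, which were not called. Capitals mark ACGTG or, on the other strand, CACGT.
Slc2a1, chr4:119108665-119108744, plus strand: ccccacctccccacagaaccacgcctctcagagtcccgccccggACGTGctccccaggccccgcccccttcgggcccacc
Hk2, chr6:82774455-82774534, minus strand: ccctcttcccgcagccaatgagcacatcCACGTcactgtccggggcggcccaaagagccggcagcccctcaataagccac
Pdk2, chr11:95041423-95041502, minus strand: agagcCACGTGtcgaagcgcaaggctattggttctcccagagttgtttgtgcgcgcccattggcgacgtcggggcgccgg
Me1, chr9:86687301-86687380, minus strand: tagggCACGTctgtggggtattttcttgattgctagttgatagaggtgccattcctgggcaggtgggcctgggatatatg
Ldha, chr7:46845724-46845803, plus strand: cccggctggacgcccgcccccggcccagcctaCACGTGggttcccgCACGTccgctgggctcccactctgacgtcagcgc
Pgk1, chrX:106186945-106187024, plus strand: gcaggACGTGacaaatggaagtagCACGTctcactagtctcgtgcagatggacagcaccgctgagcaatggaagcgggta
The stretch of Ldha holds an E-box and a further ACGTG core, and that of Pgk1 holds a pair of cores, while neither gene was called. These matches describe letters in a window and do not show binding.

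Glucose enters the cell through facilitative transporters, and both listed transporter genes were higher in ES cells. Slc2a1, which encodes GLUT1, had normalized signals of 242000, 247000 and 227000 in ES cells and 46300, 45000 and 43400 in MEF. Its log2 ratios of 2.39, 2.46 and 2.39 averaged 2.41 ± 0.043 (SD, n = 3), or 5.32-fold, at an adjusted p of 3.68e-07 (limma). Every ES cell value lay far above every MEF value. Slc2a3, which encodes the high-affinity transporter GLUT3, had signals of 138000, 138000 and 135000 in ES cells and 28300, 27600 and 27500 in MEF. Its ratio was 2.31 ± 0.021 (SD, n = 3), 4.94-fold, with an adjusted p of 2.09e-07 (limma). A second tested probe of Slc2a3 gave 2.90 ± 0.15 but was not well above background in MEF. A further probe of that name, placed on chromosome 17, was below background in both channels and was not tested.

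Of the 16 glycolytic genes, 4 were higher, 1 was lower and 11 were not called, which is 31.2% called, beside 42.8% of all genes. Their median was -0.105 and their range was -2.62 to 1.75. At the first step, which traps glucose in the cell as glucose 6-phosphate, the isozymes differed. Hk2, the inducible hexokinase, had ratios of 1.72, 1.75 and 1.77, a mean of 1.75 ± 0.026 (SD, n = 3) or 3.36-fold, with an adjusted p of 3.85e-07 (limma). Hk1, the hexokinase of most tissues, had a ratio of -0.547 ± 0.0031 and was not called. The brightest Hk1 probe read 33700 in ES cells and 49300 in MEF on average, and its 5 tested probes ranged from -0.7 to 0.0705. Gpi1, which turns glucose 6-phosphate into fructose 6-phosphate, had a ratio of -0.239 ± 0.016 and was not called.

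Phosphofructokinase commits sugar to glycolysis, and its platelet-type gene Pfkp was higher in ES cells, at 1.59, 1.64 and 1.62 on the 3 arrays. The mean was 1.62 ± 0.024 (SD, n = 3), 3.06-fold, with an adjusted p of 4.23e-07 (limma). The liver-type gene Pfkl had a ratio of 0.49 ± 0.017 and the muscle-type gene Pfkm one of -0.392 ± 0.0061, neither of them called. Pfkfb3, which makes the activator fructose 2,6-bisphosphate, had a ratio of -0.59 ± 0.017 and was not called.

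Of the listed genes from aldolase to phosphoglycerate mutase, 5 were not called and Pgam2, described next, was. Gapdh, a step between them, was not on the list and is given further below. Aldoa, the aldolase of most tissues, averaged 204000 in ES cells and 254000 in MEF, a ratio of -0.32 ± 0.044. Aldoc, the brain-type aldolase, had a ratio of 0.381 ± 0.021. Triose phosphate isomerase, Tpi1, had a ratio of -0.692 ± 0.0084 and averaged 96200 and 155000. Pgk1, the phosphoglycerate kinase of somatic cells, had ratios of -0.0232, 0.03 and 0.00493, a mean of 0.00389 ± 0.027 (SD, n = 3) and an adjusted p of 0.821 (limma). It was the 1 metabolic gene whose sign differed between arrays and whose adjusted p was above the threshold, with a mean signal of 174000 in both channels. Pgam1, the brain-type phosphoglycerate mutase, had a ratio of 0.146 ± 0.024. 

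Pgam2, the muscle-type phosphoglycerate mutase, was higher in ES cells, with ratios of 1.17, 1.16 and 1.22 and a mean of 1.18 ± 0.03 (SD, n = 3), 2.27-fold (adjusted p 1.19e-06, limma). Its mean signals were 1890 in ES cells and 834 in MEF. Of the 10 muscle markers, 7 were tested, 5 of them lower and 1 higher in ES cells (85.7% called, beside 42.8% of all genes). The summed signal of the 10 markers was 10200 to 10700 in ES cells and 124000 to 127000 in MEF. Ckm and Myf5 were not well above background in either channel. The 1 higher marker was Myh3, a myosin of embryonic muscle, at 2.50. The part of muscle cells in the level of Pgam2 was not tested.

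Enolase makes phosphoenolpyruvate, and its 3 genes went in different directions. Eno1, the enolase of most cells, was higher in ES cells at 1.49, 1.54 and 1.55, a mean of 1.53 ± 0.034 (SD, n = 3) or 2.88-fold, with an adjusted p of 7.41e-07 (limma). Eno2, known as neuron-specific enolase, was lower, with signals of 743, 698 and 694 in ES cells and 4370, 4330 and 4370 in MEF. Its ratio was -2.62 ± 0.051 (SD, n = 3), 6.13-fold lower, with an adjusted p of 4.05e-07 (limma), and its other probe gave -2.56 ± 0.034. Eno3, the muscle enolase, had a ratio of -0.214 ± 0.011 and was not called.

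Markers of neurons and astrocytes are given beside Eno2. All 10 were tested, 4 were lower and 1 was higher in ES cells (50% called, beside 42.8% of all genes). The summed signal was 15800 to 16000 in ES cells and 18600 to 18900 in MEF. By their brightest probes, the astrocyte genes Gfap and Aqp4 were not well above background in ES cells and were at least 37.8-fold and 30.5-fold lower there, as bounds against the dimmest measured signal. The neuronal gene Nefl was the 1 that was higher in ES cells, at 4.51 ± 0.14 with mean signals of 6190 and 273. Map2, another gene of neurons, was lower at -1.71 ± 0.094, with mean signals of 343 and 1120. Tubb3, also neuronal, had a ratio of 0.0265 ± 0.011, and Snap25 was not well above background in MEF. The part of other cells in the level of Eno2 was not tested.

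**Figure D3:**
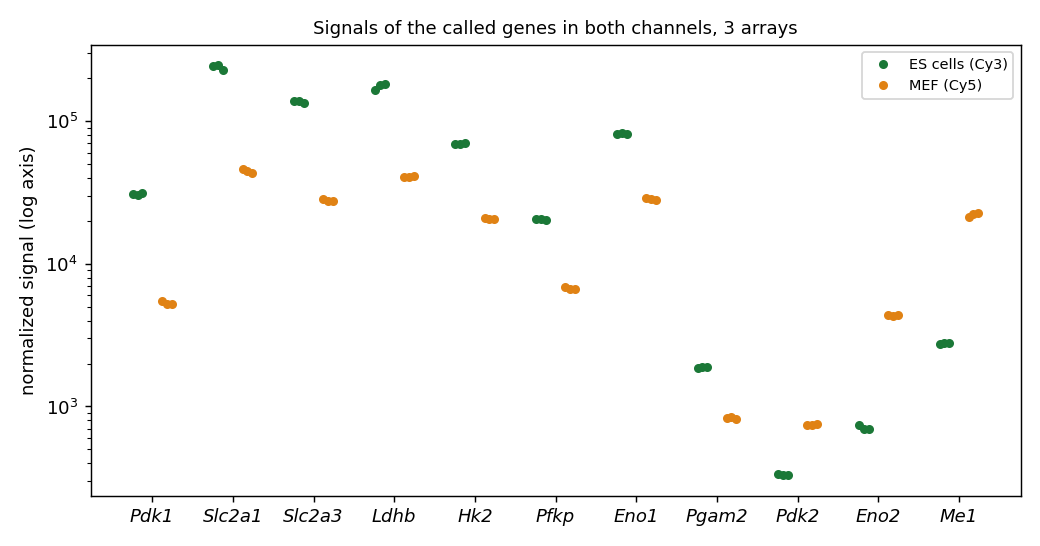
Normalized signal (y axis, log scale) of the 11 called genes in the ES cell channel (green) and the MEF channel (orange), with 1 point per array. The 11 genes were chosen by the call, so their channels lie apart by selection. Pdk2, Eno2 and Me1 are the 3 with the MEF points above the ES cell points.

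Lactate dehydrogenase is a tetramer of subunits encoded by Ldha and Ldhb, the first favoured in muscle and the second in heart. Ldhb was higher in ES cells, with signals of 166000, 179000 and 181000 against 40300, 40800 and 41300 in MEF. Its ratio was 2.10 ± 0.053 (SD, n = 3), 4.29-fold, with an adjusted p of 7.32e-07 (limma). Ldha had a ratio of -0.345 ± 0.038, with mean signals of 181000 in ES cells and 230000 in MEF, and was not called. Its other probe, 133000 and 116000 on average, gave 0.202 ± 0.021, so the sign for Ldha depends on the probe.

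The pyruvate dehydrogenase complex oxidises pyruvate to acetyl-CoA. None of its 3 listed subunit genes was called (0%, beside 42.8% of all genes). Pdha1, the X-linked subunit that the kinases phosphorylate, had ratios of 0.998, 0.978 and 1.00, a mean of 0.992 ± 0.012 (SD, n = 3) that lay just under the fold minimum (adjusted p 8.35e-07, limma). It was called at 1.17 with the scanner's processed signals and at 1.03 with no normexp offset, and a second probe of it gave -0.00458 ± 0.018. Pdhb, the partner of Pdha1 in the first enzyme of the complex, had a ratio of 0.49 ± 0.011. Dlat, the acetyltransferase core, had a ratio of -0.0505 ± 0.0087, which turned to 0.105 with processed signals and 0.231 with median centring.

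Of the 4 kinases of the complex 1 was higher, 1 was lower and 2 were not called (50% called, beside 42.8% of all genes). Pdk1 had the highest ratio of all 41 genes, with signals of 30700, 30300 and 31200 in ES cells and 5500, 5210 and 5260 in MEF. Its ratio was 2.53 ± 0.046 (SD, n = 3), 5.77-fold, with an adjusted p of 3.63e-07 (limma), and its second probe gave 2.14 ± 0.019. Pdk2 had signals of 338, 330 and 331 in ES cells and 740, 747 and 749 in MEF. Its ratio was -1.16 ± 0.029 (SD, n = 3), 2.24-fold lower, with an adjusted p of 1.19e-06 (limma), and with median centring it was -0.989 and not called. Pdk3 had a ratio of -0.605 ± 0.016 by its brightest probe and 0.572 ± 0.016 by the other. Pdk4, the kinase raised by fasting in many tissues, had a ratio of 0.0992 ± 0.012.

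The 4 measured pentose phosphate genes had ratios between -0.435 and 0.747. G6pdx, the dehydrogenase that commits glucose 6-phosphate to the pathway, had a ratio of -0.435 ± 0.0041, and Pgd, the next NADPH-producing enzyme, one of -0.355 ± 0.0054. The non-oxidative enzymes lay on the other side of 0, with Tkt, transketolase, at 0.512 ± 0.026 and Taldo1, transaldolase, at 0.747 ± 0.027. None of the 4 reached the fold minimum (0% called, beside 42.8% of all genes), and their median was 0.0789. The other probe of Tkt gave -0.312, so the division between the oxidative and the non-oxidative branch rests on the choice of that probe.

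Of the 10 genes listed with the TCA cycle none was higher and 1 was lower (10% called, beside 42.8% of all genes), and their median was -0.0626. The exception was Me1, named Mod1 in the files, which encodes the cytosolic NADP-dependent malic enzyme and is not itself a step of the cycle. Me1 had signals of 2750, 2800 and 2790 in ES cells and 21200, 22500 and 22700 in MEF. Its ratios of -2.95, -3 and -3.03 averaged -2.99 ± 0.038 (SD, n = 3), 7.97-fold lower, with an adjusted p of 2.19e-07 (limma), and its second probe gave -2.02 ± 0.052. It was the lowest of the 41 genes, and the fibroblast and macrophage markers given above were lower too. The part of either cell type in the level of Me1 was not tested.

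The 9 remaining genes lay between -0.554 and 0.859. Citrate synthase, Cs, had a ratio of -0.554 ± 0.06, but its other probe gave 0.225. Fumarase, Fh1, at 0.859 ± 0.0053 and the catalytic subunit of NAD-dependent isocitrate dehydrogenase, Idh3a, at 0.812 ± 0.018 were the closest to a call. Median centring took them to 1.07 and 1.08, where they were called. Mitochondrial malate dehydrogenase, Mdh2, had a ratio of -0.513 ± 0.035 and the cytosolic form, Mdh1, one of 0.101 ± 0.004. Aco1, the cytosolic aconitase that also serves as an iron sensor, had a ratio of -0.508 ± 0.0035, and Ogdh, of the oxoglutarate dehydrogenase complex, one of -0.226 ± 0.029. The NADP-dependent isocitrate dehydrogenases Idh1, of the cytosol, and Idh2, of the mitochondria, had ratios of 0.211 ± 0.034 and 0.16 ± 0.023.

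Isozymes of a step were set against each other as differences of their log2 ratios on each array, which compares how unequally they changed and not their levels. The largest difference was between enolases, with Eno2 minus Eno1 at -4.14 ± 0.085 (SD, n = 3), followed by Pdk1 minus Pdk2 at 3.69 ± 0.074. Ldha minus Ldhb was -2.45 ± 0.041, Hk2 minus Hk1 was 2.29 ± 0.024, and Eno3 minus Eno1 was -1.74 ± 0.024. These 5 differences had the same sign on all 3 arrays and for every pair of tested probes of the genes. Eno3 minus Eno1 had only 1 such pair, so its probes could not differ. Pdk4 minus Pdk2 was 1.26 ± 0.027, Pgam2 minus Pgam1 was 1.04 ± 0.054 and Pfkm minus Pfkl was -0.882 ± 0.011, each from 1 pair of probes.

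Other isozyme pairs varied in sign or in size with the probe, or were nearly level. Pfkp minus Pfkl was 1.13 ± 0.038 by the brightest probes and ranged from -0.452 to 3.1 over the probes of Pfkp. Aldoc minus Aldoa was 0.702 ± 0.024 and ranged from -0.592 to 0.701 over means of single probes. Mdh2 minus Mdh1 was -0.614 ± 0.038 and ranged from -1.56 to -0.443. Pdk3 minus Pdk2 was 0.557 ± 0.023 and ranged from 0.555 to 1.73. Both kept their sign on every array and over every pair of tested probes. The transporters lay close together, with Slc2a3 minus Slc2a1 at -0.105 ± 0.024 by the brightest probes and -0.1 to 0.49 over means of single probes, and so did Idh2 minus Idh1 at -0.0513 ± 0.03. With 3 arrays the exact sign-flip permutation test, two-sided, cannot give a p under 0.25, and each of the 14 comparisons gave 0.25, also after Benjamini-Hochberg adjustment.

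**Figure D4:**
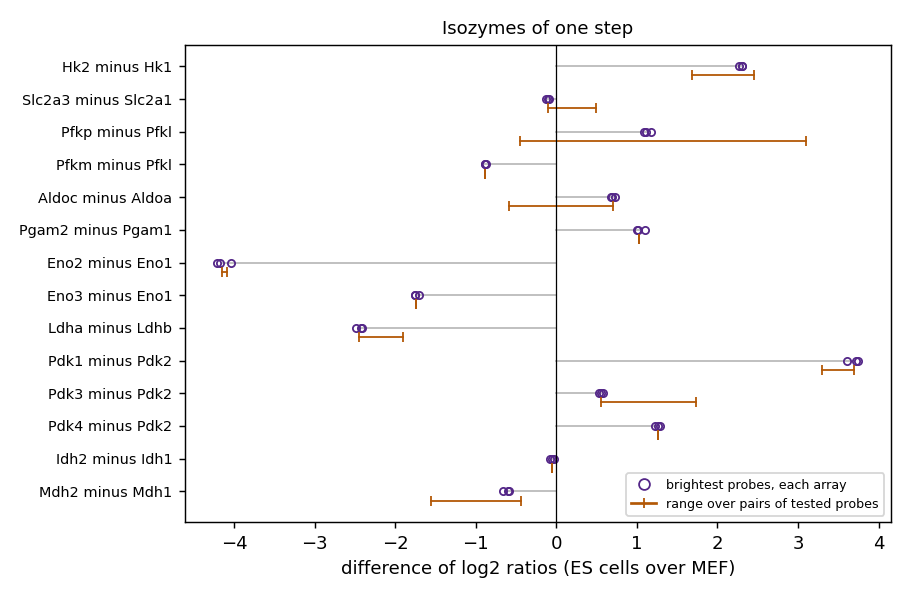
Difference of log2 ratios (ES cells over MEF) between isozyme genes (x axis) for 14 pairs (y axis), with open circles for the 3 arrays by the brightest probes and bars for the range over all pairs of tested probes. The bars of Pfkp minus Pfkl, Aldoc minus Aldoa and Slc2a3 minus Slc2a1 cross 0, while those of Eno2 minus Eno1 and Pdk1 minus Pdk2 stay far from it.

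Different probes of a gene often gave different ratios, and this exceeded the spread between arrays. Of the 22 genes with more than 1 tested probe, 12 had the same sign by all of them and 10 had both signs. Probes were more than 1 apart on the log2 scale for 4 genes, Pfkp by 3.55, Aldoc by 1.23, Pdk3 by 1.18 and Mdh1 by 1.12. For Pfkp and Mdh1 the probes fell on both sides of the call. The Mdh1 probe at 1.05 ± 0.073 was dim, with mean signals of 230 in ES cells and 112 in MEF, and so was the Aldoc probe at -0.851 ± 0.087, with 172 and 310. No probe of these genes shared a run of 25 or more bases with a probe of another gene on the array, while near-identical copies elsewhere in the genome were not looked for.

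The first 30 of 60 bases of the 3 Pfkp probes are shown because they give the widest range, with probe positions from the files in mouse build mm7. The first is the brightest and its span on chromosome 13 exceeds its length.
Pfkp probe at chr13:6475782-6477936: caaactgaaggggtcccagggcacagggaa
Pfkp probe at chr13:6482360-6482419: cgaaagatccaaggcaaacaaaacatccaa
Pfkp probe at chr13:6473188-6473247: cttcatggtctcagaatttccttcagagtt
They gave ratios of 1.62 ± 0.024, 3.59 ± 0.075 and 0.0375 ± 0.054 (SD, n = 3), in that order. The first averaged 20600 in ES cells and 6720 in MEF, the second 24000 and 2000, and the third 678 and 661. Pfkp was thus called by 2 of its 3 probes. Whether each lies in a coding exon or in a UTR was not determined, because no annotation of build mm7 was used.

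The Pgk1 probes overlap, so they read nearly the same stretch of RNA. They share 38 bases, whose beginning is in capitals at the end of the first sequence and fills the second.
Pgk1 probe at chrX:101530787-101530846: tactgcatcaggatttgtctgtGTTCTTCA
Pgk1 probe at chrX:101530809-101530868: GTTCTTCAAGATCCCATTTAAATTCCTTAG
The first gave a ratio of 0.00389 ± 0.027 and the second, shifted downstream along the gene, gave 0.508 ± 0.049. Mean signals were 174000 in both channels for the first and 184000 and 129000 for the second. Overlapping probes of 1 transcript thus differed by more than the spread between arrays, and neither ratio reached the call.

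**Figure D5:**
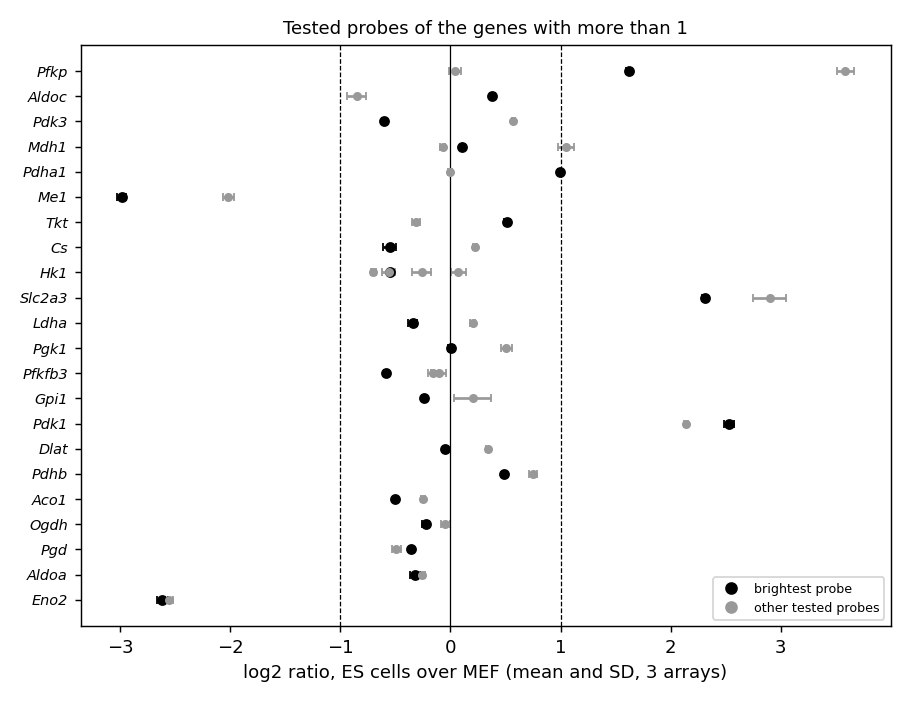
Log2 ratio of ES cells over MEF (x axis, mean and SD over 3 arrays) of every tested probe of the 22 genes with more than 1 (y axis, widest range at the top), with the brightest probe in black and others in grey. Pfkp spans 0.0375 to 3.59, while the probes of Eno2, at the bottom, lie 0.06 apart.

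Genes of the same pathways outside the list were read from the same fit. Of 35 further genes of glycolysis, sugar uptake and lactate, 33 were tested, with 7 higher, 6 lower and a median of -0.16 (39.4% called, beside 42.8% of all genes). The highest were Ldhc, the testis lactate dehydrogenase, at least 14.6-fold higher in ES cells and not well above background in MEF, and Tigar, a fructose 2,6-bisphosphatase, at 2.55 ± 0.083 (SD, n = 3). The lowest were the transporter gene Slc2a6 at -3.35 ± 0.034 and Hk3, a hexokinase of myeloid cells, at -3.23 ± 0.13. Both were on the side of the fibroblast and macrophage markers, as every lower gene is. The part of either cell type was not tested. Other steps that follow the listed genes were singled out after their values were seen. Gapdh was at 2.17 ± 0.018 with mean signals of 2200 and 489. Its only probe was far dimmer than the brightest probes of Aldoa (204000 and 254000) and Pgk1 (174000 in both channels). Whether it reads the main Gapdh transcript was not tested. The pyruvate kinase gene Pkm was at 1.12 ± 0.03, or 0.932 and not called over the mean of its probes. The lactate carrier gene Slc16a1 was at 1.33 ± 0.013. Of its relatives on the same list, Slc16a7 was lower at -2.73 ± 0.069. Slc16a3 at -0.16 ± 0.017 and Slc16a8 at -0.242 ± 0.019 were not called.

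Around pyruvate and gluconeogenesis, 12 of 14 further genes were tested, with 2 higher, 3 lower and a median of -0.104 (41.7% called, beside 42.8%). Fbp1, a fructose bisphosphatase, was higher at 2.24 ± 0.12 (SD, n = 3), and its relative Fbp2 was at least 3.40-fold higher and not well above background in MEF. The mitochondrial phosphoenolpyruvate carboxykinase gene Pck2 was lower at -3.27 ± 0.041, and so was the glucose 6-phosphatase gene G6pc3 at -1.54 ± 0.014.

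All 10 further pentose phosphate genes were tested, with 4 higher, 1 lower and a median of 0.542 (50% called, beside 42.8% of all genes). Tktl1, a transketolase-like gene, was at least 6.78-fold higher in ES cells and not well above background in MEF. Prps1, which turns ribose 5-phosphate into the precursor of nucleotides, was at 2.69 ± 0.016 (SD, n = 3), with mean signals of 61600 in ES cells and 9580 in MEF. H6pd, the hexose 6-phosphate dehydrogenase of the endoplasmic reticulum, was lower at -2.04 ± 0.024.

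All 23 further genes of the TCA cycle and of malate and glutamate handling were tested, with 6 higher, 1 lower and a median of 0.336. That is 30.4% called, beside 42.8% of all genes. Gls2, a glutaminase, was at 3.52 ± 0.022 (SD, n = 3), with mean signals of 16200 in ES cells and 1410 in MEF. The 1 lower gene was Me3, a mitochondrial malic enzyme, at -1.29 ± 0.44, with ratios of -0.805, -1.65 and -1.41, while the widest SD among the listed genes was 0.06. Me3 was not called by limma's treat, which tests against a ratio of 1 in size.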

How the data were processed

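Per the file headers, the authors took spot values from the scans by Agilent Feature Extraction 9.5.3.1. The deposited mean spot and median background intensities are not background-subtracted. The same software subtracted background and balanced the dyes to give the deposited processed intensities, whose deposited log10 ratio (Cy5 over Cy3) is MEF over ES cells. The authors' deposited value table is in log2 units. Compared with the sign-turned scanner ratio of each array (r = 0.998, 1 and 0.999 across probes), it runs as ES cells over MEF, is not centred (column medians 0.213, 0.0859 and -0.143), and any further step behind it is not given in the sources used here. The design text names the Cy5 sample otherwise once, and the sample labels, MEF, were followed.

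Signals were corrected with normexp (offset 50, which shrinks ratios of dim genes) in limma 3.58.1 under R 4.3.3. Ratios were normalized by loess within arrays with controls at weight 0, turned to ES cells over MEF and averaged per probe, leaving out 117 to 144 outlier spots per array. Median gene spot signals were 397.9 to 421.0 (ES cells) and 381.2 to 390.6 (MEF), over median backgrounds of 45 to 56 and 38 to 41.5. The number of arrays limits the precision. Probes well above background in 1 channel on all arrays were kept, and each gene took the value of its brightest probe on average. Probes took names from RefSeq accessions (22951), symbols, synonyms or gene numbers (10062) or the file (8161). The mean ratio was tested against 0 with lmFit and eBayes, with Benjamini-Hochberg adjustment over 19486 genes. Where a channel was not above background on every array, a bound against the lowest signal well above background on each array is given. All arrays lay on 1 slide with 1 scan, so no batch could be tested. The procedure was tested on simulated data. Alternatives covered background, normalization, filters, probe summary, test and replicates.

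The members, the further lists and the tests were chosen with earlier results of these data known. The genes named were all listed genes, plus the 2 highest and the 2 lowest called of each further list, and markers beside a result. Relatives of Mycn, Hif1a and Slc16a1 were added after their values were seen. One gene that this rule names is not reported here. Aldoart1 and Pck1 were among the further genes not above background, and Pdp2 had no probe by name.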

Additional observations from a re-analysis of the deposited data

How the results depend on the processing

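Each of the 8 higher and 3 lower calls among the 41 genes kept its direction and side of the threshold under all alternatives run, with the exception of Pdk2 under median centring (-0.989), and leaving out any 1 of the 3 arrays kept all 11. Of these, Slc2a1, Hk2, Pgam2, Eno1, Ldhb and Pdk2 had 1 tested probe each, so the mean of probes could not change them. Without the fold minimum the counts were 8948 higher and 9651 lower over all genes and 21 higher and 19 lower among the 41. Median log2 ratios moved with the scaling, in the order all 41 genes, glucose uptake, glycolysis, lactate dehydrogenase, pyruvate dehydrogenase subunits, pyruvate dehydrogenase kinases, pentose phosphate and TCA cycle. They were 0.195, 2.51, 0.0561, 1.03, 0.601, -0.122, 0.211 and 0.0511 with processed signals and with the authors' deposited table alike. They were 0.121, 2.40, -0.0697, 0.924, 0.526, -0.233, 0.117 and -0.0344 with normexp offset 0, and 0.231, 2.50, 0.0522, 0.958, 0.734, 0.00955, 0.269 and 0.177 with median centring. With the mean of all tested probes, medians were 2.51 for glucose uptake, 1.02 for lactate dehydrogenase, 0.0414 for the kinases, -0.162 for pentose phosphate and 0.0119 for the TCA cycle. The signs of the glycolysis, kinase, pentose phosphate and TCA medians thus depend on these choices, and the cause was not tested. Single genes that changed sign, none of them called, were Dlat (0.105 with processed signals and the authors' deposited table, 0.231 with median centring, 0.144 with the mean of probes), Aldoc (-0.235 with the mean of probes), Eno3 (0.053) and Ogdh (0.0357) with median centring, and Pgk1, which ranged from -0.00914 to 0.0174 over the fits that left out 1 array. The isozyme differences were rerun under alternatives chosen after seeing the data, and 1 changed sign, Slc2a3 minus Slc2a1, at 0.191 with the mean of probes, where the second Slc2a3 probe was not above background in MEF. Aquantile leaves ratios unchanged by its construction. No paired analysis was possible because each array already holds an ES cell replicate and MEF, and the 1 group of ratios is tested against 0. The offset and the background limit ratios of dim genes such as Pdk2, Eno2 and Pgam2.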

Other observations

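Genes that regulate glycolysis were called about as often as other genes. All 20 listed regulators were tested, with 6 higher and 3 lower in ES cells (45% called, beside 42.8% over all genes) and a median log2 ratio of 0.168. Mycn, the Myc family member of embryonic and neural cells, had signals of 109000, 112000 and 111000 in ES cells and 773, 749 and 764 in MEF, a log2 ratio of 7.18 ± 0.04 (SD, n = 3, adjusted p 1.62e-07, limma), the highest among all genes tested. Esrrb, an orphan nuclear receptor of naive pluripotent cells, was at 3.62 ± 0.036. It is also among the ES cell markers. Of the relatives of Mycn, Myc was lower at -1.54 ± 0.0056 and Mycl higher at 1.9 ± 0.079. Hif1a, the oxygen-regulated subunit of hypoxia-inducible factor, was lower in ES cells at -1.70 ± 0.064, with mean signals of 7010 and 22800. Its relative Epas1 was higher at 1.63 ± 0.064, and Hif3a was not called at -0.209 ± 0.031. Ppargc1a, a coactivator of mitochondrial genes, was at least 3.89-fold lower, by a probe not well above background in ES cells. With probes required to be above background in both channels, another probe stood for it, at -0.675 and not called. These are RNA levels, and Hif1a in particular is regulated at the protein level, which arrays do not measure.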
